A study of Homo sapiens with 3 samples.

Results

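Pericentromeric peaks were examined in 2 chromatin immunoprecipitation sequencing (ChIP-seq) lists from K562 cells, a human erythroleukaemia line carrying the BCR-ABL1 fusion. Members were all peaks whose midpoint lay in 1 of 16 fixed windows around centromeres (hg19), which together span 135 Mb on chromosomes 1 to 12, 16, 18, 20 and 21. They numbered 434 of the 14365 peaks listed for codanin-1 (3.02%) and 450 of the 5164 listed for GATA1 (8.71%). The windows are defined by position, but were chosen with earlier results of these data known, and 8 chromosomes (13, 14, 15, 17, 19, 22, X and Y) had none. Codanin-1 was precipitated with Cod1, a homemade antibody against an N-terminal stretch of the protein, and GATA1 with the N6 antibody. Both libraries came from K562 cells fixed for 10 minutes in 1% formaldehyde and sonicated for 18 cycles, and the labels name no treatment or genetic change. Rabbit IgG and a second codanin-1 antibody (Cod2) were part of the design and were not analysed here. There was 1 library per antibody, so no value has a replicate error and no p-value is given. Intervals are 95% exact binomial intervals and cover counting error only, and they are too narrow where neighbouring peaks are not independent.

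Centromeres are built on alpha satellite, a tandem repeat, and blocks of other satellites and recently duplicated segments lie beside them. The largest such heterochromatin blocks are on chromosomes 1, 9 and 16, and the short arm of chromosome 21 carries ribosomal RNA genes and satellites. Reference assemblies hold these tracts only in part, so sequencing reads from many copies can be placed at few positions. Codanin-1, the product of CDAN1, binds the histone chaperone ASF1, and erythroblasts of patients with CDAN1 mutations show spongy heterochromatin. GATA1 is a transcription factor that directs erythroid genes through GATA motifs. The label of the windows was checked against the lists only: no repeat or centromere annotation of the build was used, so no peak is assigned to a satellite. In 15 of the 16 windows the longest stretch without a peak of either list was between 3.01 and 18.4 Mb. The window of chromosome 3 held no peak of either list.

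The members were concentrated in few places, some crowded in both lists and some in 1 only. Of the 135 intervals of 1 Mb that make up the windows, 60 held a codanin-1 peak, 49 a GATA1 peak and 46 both. The 5 most filled megabases held 37.6% of the codanin-1 members and 48.2% of the GATA1 members. The megabase from 49000001 to 50000000 on chromosome 4 was the fullest in both lists and held 47 peaks of codanin-1 against 64 of GATA1. It was followed for codanin-1 by chromosome 16 from 33000001 to 34000000, with 41 peaks against 39 for GATA1. Chromosome 21 from 9000001 to 10000000 held 28 codanin-1 and 44 GATA1 peaks. Other megabases were filled mainly in 1 list: chromosome 10 from 42000001 to 43000000 held 41 peaks of GATA1 against 2 of codanin-1, and chromosome 1 from 121000001 to 122000000 held 24 of codanin-1 against 10 of GATA1. At least 10 peaks were counted in 11 megabases for codanin-1, in 13 for GATA1 and in 6 for both.

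By chromosome, codanin-1 peaks were most numerous on chromosome 9, with 73, followed by chromosome 2 with 67, chromosome 21 with 58, chromosome 4 with 53, chromosome 16 with 48, chromosome 1 with 36 and chromosome 20 with 26. GATA1 peaks were most numerous on chromosome 2, with 77, followed by chromosome 21 with 69, chromosome 4 with 64, chromosome 9 with 54, chromosome 10 with 49 and chromosome 16 with 47. Each other window held at most 15 codanin-1 peaks and at most 18 GATA1 peaks. The lists parted most on chromosome 10, where codanin-1 had 12 peaks to 49 for GATA1, and on chromosome 1, where it had 36 to 12. GATA1 peaks outnumbered codanin-1 peaks in 8 windows and codanin-1 peaks were the more numerous in 7, although the whole GATA1 list was the shorter one.

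**Figure D1:**
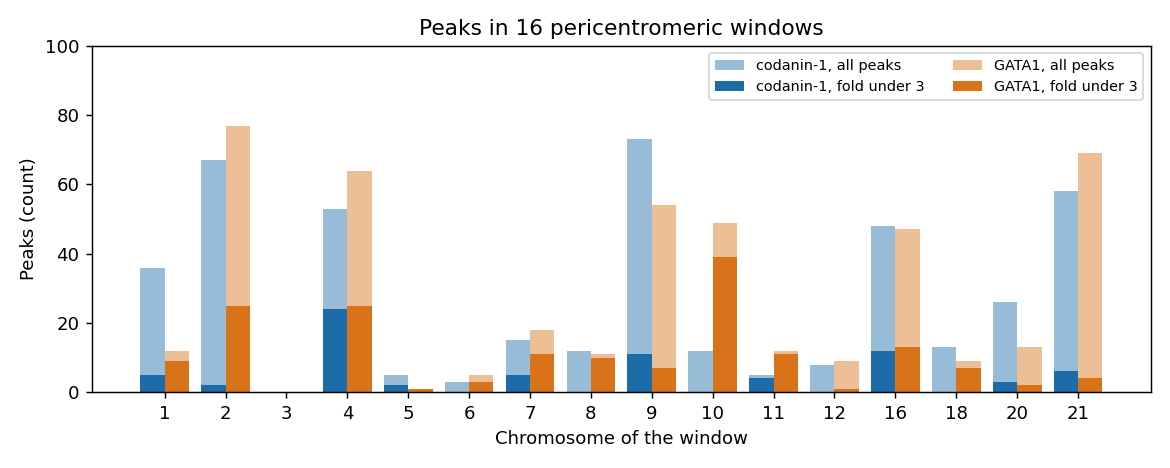
Number of peaks (vertical axis) in each pericentromeric window, by chromosome (horizontal axis), for codanin-1 (blue) and GATA1 (orange); pale bars count all peaks and solid bars those with a fold enrichment under 3. In the chromosome 10 window 39 of 49 GATA1 peaks had a fold under 3, against 0 of 12 codanin-1 peaks.

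Per Mb of window, the GATA1 list was denser here than elsewhere, and the order for codanin-1 depended on the length counted. GATA1 had 3.33 peaks per Mb in the windows against 1.60 in the rest, a ratio of 2.09 (1.89 to 2.30). Codanin-1 had 3.21 against 4.71, a ratio of 0.68 (0.62 to 0.75). Once the longest peak-free stretch of each window was left out, 53.5 Mb remained and the ratios were 5.27 for GATA1 and 1.72 for codanin-1, so the codanin-1 ratio lay on either side of 1. These stretches were found from the peaks themselves, and no such stretch was removed from the rest. In the main ratios both lengths were taken whole, with any unsequenced gaps of the assembly, which cannot hold a peak, left in. Once both lists were limited to a −log10 q of 2 or more (the authors' significance after correction for multiple testing), the GATA1 ratio was 5.16. The codanin-1 ratio was then 0.92 (0.77 to 1.10), an interval that includes 1. The outermost 32 Mb inside the windows held 6.13 codanin-1 peaks per Mb and the adjoining 32 Mb outside held 4.44. The same pair of values was 4.19 and 1.03 for GATA1. Both inside values rest in large part on crowded megabases at the start of a window. Chromosome 16 from 33000001 to 34000000 held 41 codanin-1 and 39 GATA1 peaks. Chromosome 21 from 9000001 to 10000000 held 28 and 44. The comparison was not repeated without these megabases, so it does not show a higher density along window edges in general.

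Pericentromeric peaks had low fold enrichment for their significance, most clearly in the GATA1 list. Fold enrichment is the authors' ratio of the library over the peak caller's background, and is read here beside −log10 q. The median GATA1 fold was 3.65 in the windows (3.44 to 3.78) and 4.20 in the rest (4.19 to 4.21). The median GATA1 −log10 q ran the other way, at 2.43 in the windows (2.20 to 2.76) and 1.59 in the rest. For codanin-1 the median fold was 3.78 (3.71 to 3.84) against 3.97, and the median −log10 q was 1.66 (1.61 to 1.75) against 1.60. The intervals of the windows thus did not reach the medians of the rest in either list, and the distance was larger for GATA1.

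Peaks with a fold under 3 were far more frequent in the windows. Such a fold was found in 5.50% of the whole GATA1 list and in 1.75% of the whole codanin-1 list. In the windows 168 of 450 GATA1 peaks had it (37.3%, 32.8 to 42.0), against 2.46% of the rest, and 74 of 434 codanin-1 peaks (17.1%, 13.6 to 20.9), against 1.28% of the rest. The windows thus supplied 59.2% of all GATA1 peaks of low fold in the list and 29.4% of those of codanin-1. Low folds were not particular to the windows. Of the 116 low-fold GATA1 peaks outside them 36 lay on chromosome Y and 80 on other chromosomes. Of the 178 of codanin-1, 33 lay on chromosome Y and 145 on others. The threshold of 3 was chosen after the values were seen. With a threshold of 2.5 the shares were 29.8% for GATA1 against 1.59% of the rest, and 10.1% for codanin-1 against 0.538%. With both lists limited to a −log10 q of 2 or more, 26.3% of codanin-1 members were under a fold of 3, against 1.87% of the rest. For GATA1 the shares were 51.1% and 8.86%.

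A low fold together with a −log10 q of 2 or more was found in 4.57% of the GATA1 list and 0.654% of the codanin-1 list. The windows held 136 such GATA1 peaks (30.2%, 26.0 to 34.7), against 2.12% of the rest, and 35 such codanin-1 peaks (8.06%, 5.68 to 11.04), against 0.424%. On chromosome 8, 10 of the 11 GATA1 peaks were of this kind, and on chromosome 10, 32 of 49.

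GATA1 peaks of high significance were frequent in the windows as well. Across the lists, 5.27% of GATA1 peaks and 0.188% of those of codanin-1 had a −log10 q of 5 or more. Within the windows this level was met by 98 GATA1 peaks (21.8%, 18.0 to 25.9), against 3.69% of the rest, and by 4 codanin-1 peaks (0.922%, 0.252 to 2.34), against 0.165%. The 98 GATA1 peaks lay in 12 windows and made up 36.0% of the 272 such peaks of the list, and 58 of them had a fold under 3. A further 33 of the 272 lay on chromosome Y, and 141 lay outside both. Chromosome 10 contributed 19, chromosome 9 17, chromosome 16 14 and chromosome 4 12.

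**Figure D2:**
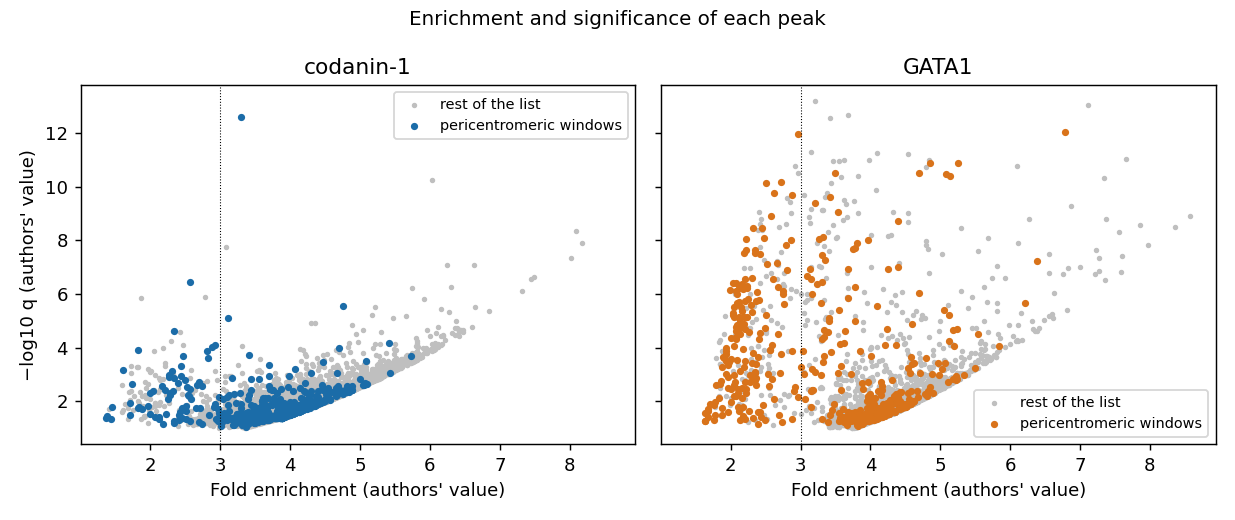
Fold enrichment (horizontal axis) and −log10 q (vertical axis) of every peak, both as deposited, for codanin-1 (left) and GATA1 (right); coloured points lie in the pericentromeric windows, grey points elsewhere, and the dotted line marks a fold of 3. In the GATA1 panel, 58 coloured points (of 450 members) and 42 grey points (of 4714) lie left of the line with a −log10 q of at least 5.

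Peaks in the windows were also wider. The median width was 219.5 bp for GATA1 (205 to 236) against 163 bp in the rest, and 251.5 bp for codanin-1 (225 to 276) against 219 bp. A width of at least 1 kb was reached by 28 GATA1 members (6.22%, against 2.10% of the rest) and by 20 codanin-1 members (4.61%, against 1.38%). The window of chromosome 4 had the highest median widths among windows with at least 10 peaks, 356 bp in the codanin-1 list and 290.5 bp in the GATA1 list. The 12 codanin-1 peaks of chromosome 8 were all between 101 and 472 bp wide.

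The widest members of each list lay at sites shared with the other. For codanin-1 they were on chromosome 4 at 49514556 to 49517145 (2590 bp), chromosome 21 at 9698600 to 9700741 (2142 bp) and at 9825462 to 9827486 (2025 bp), and chromosome 4 at 49292831 to 49294625 (1795 bp) and at 49324840 to 49326548 (1709 bp). Each of these 5 overlapped a GATA1 peak. Their folds were low, from 1.60 to 2.44. For GATA1 the widest was on chromosome 16 at 33237400 to 33241205 (3806 bp). The next was on chromosome 21 at 9697910 to 9700870 (2961 bp), and the other 3 were on chromosome 4 at 49330490 to 49333420 (2931 bp), 49280892 to 49283533 (2642 bp) and 49514548 to 49517115 (2568 bp). The folds of the last 4 were between 3.09 and 3.55. All 5 overlapped a codanin-1 peak. On chromosome 21 the boundaries of one site nearly coincided: the codanin-1 peak ran from 9825462 to 9827486 with a fold of 1.60 and the GATA1 peak from 9825459 to 9827558 with a fold of 2.32.

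Neighbouring peaks of a list lay close together in the windows. The median gap from a peak to the nearest peak of its own list was 811 bp for GATA1 (684 to 1008) against 8808 bp in the rest, and 6990 bp for codanin-1 (5345 to 8885) against 20137 bp. Chains, defined as at least 3 peaks of a list with neighbours no more than 10 kb apart, held 42.0% of the GATA1 list and 21.2% of the codanin-1 list. In the windows they held 311 GATA1 peaks (69.1%, 64.6 to 73.4), against 39.4% of the rest, and 174 codanin-1 peaks (40.1%, 35.4 to 44.9), against 20.6%. Once peaks within 1 kb of each other were merged, the GATA1 share was 43.3%, against 23.4% of the rest. Without crowded megabases on chromosomes 22 and 9 (outside the windows) and without chromosomes Y and M, the rest stood at 23.04% for GATA1 and 13.2% for codanin-1. The members formed 42 GATA1 chains on 13 chromosomes and 35 codanin-1 chains on 9.

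Within the windows the largest chain of both lists was at 1 place on chromosome 4, although each whole list had longer chains elsewhere, of up to 113 peaks for codanin-1 and 157 for GATA1. There 40 GATA1 peaks lay between 49272613 and 49337017 and covered 38.0% of 64.4 kb, with a median fold of 3.30 and a median −log10 q of 3.65. Within nearly the same bounds, 49280679 to 49337099, were 26 codanin-1 peaks that covered 31.5% of 56.4 kb, with a median fold of 2.54. Of these codanin-1 peaks 25 overlapped a GATA1 peak, and of the 40 GATA1 peaks 26 overlapped a codanin-1 peak. This chain also held the most significant codanin-1 peak of the whole list, at 49316958 to 49317121, which was 164 bp wide with a fold of 3.29 and a −log10 q of 12.6. It shared 138 bp with a GATA1 peak at 49316984 to 49317383 whose −log10 q was 5.65.

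Another shared chain was on chromosome 16. It held 20 GATA1 peaks between 33935652 and 33965632, of which 12 had a −log10 q of at least 5, and 11 codanin-1 peaks between 33936907 and 33966032. All 11 codanin-1 peaks overlapped a GATA1 peak although their median fold was 2.04. The GATA1 median fold there was 3.51.

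Some large chains belonged to 1 list. On chromosome 1, 14 codanin-1 peaks lay between 121373888 and 121427333, with a median fold of 3.51 and 0 GATA1 peaks in the span. On chromosome 2, 24 GATA1 peaks lay between 92281288 and 92326146 with 0 codanin-1 peaks in the span. Every one of these 24 had a fold under 3 (1.68 to 2.52), and 7 had a −log10 q of at least 5. A chain of the same make-up lay on chromosome 10 between 42380235 and 42409383, where 19 GATA1 peaks had folds of 1.94 to 2.66 and −log10 q values of 3.08 to 7.64, again with 0 codanin-1 peaks in the span.

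**Figure D3:**
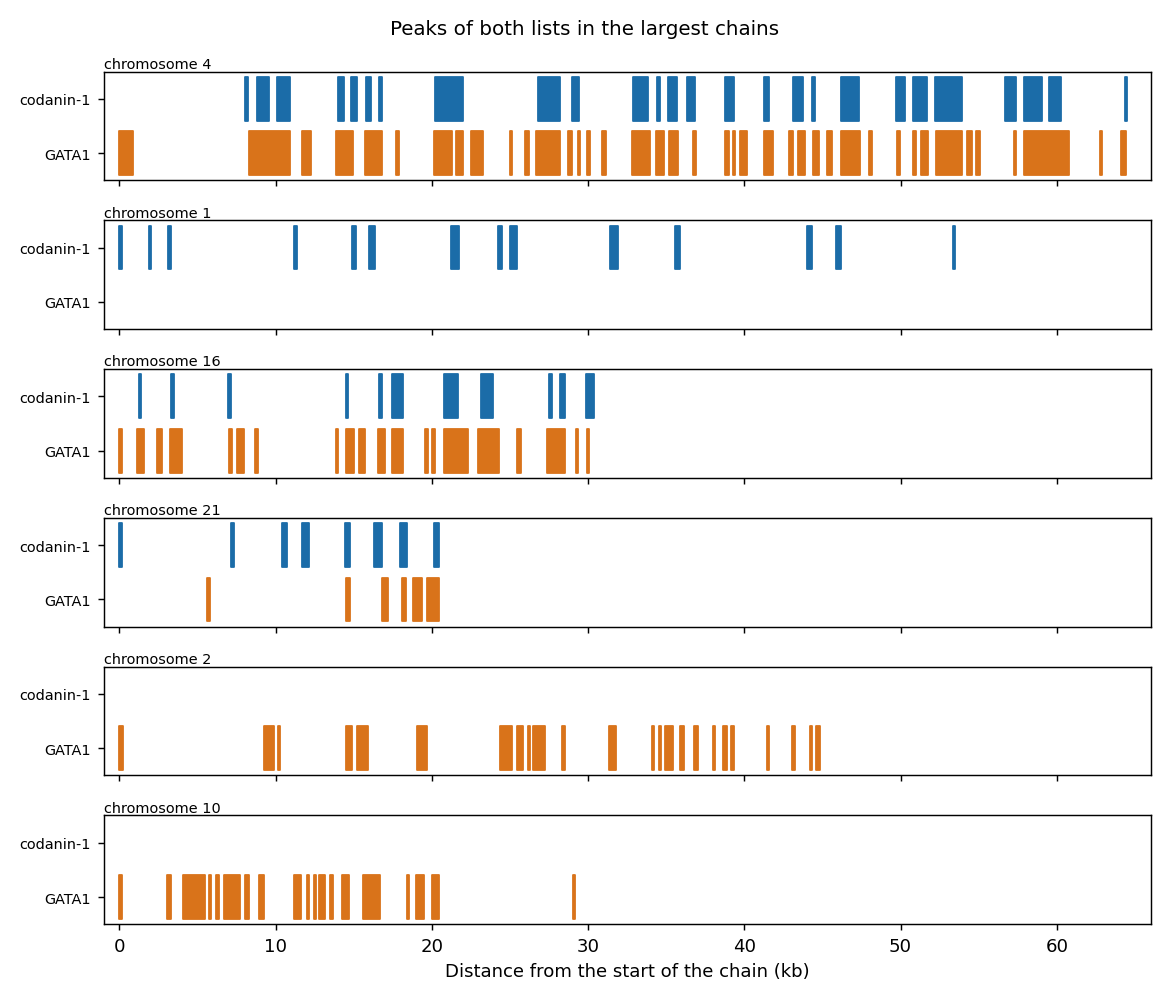
Peaks of codanin-1 (blue, upper row of each panel) and GATA1 (orange, lower row) in the 4 largest chains of each list, which fall on 6 places; the horizontal axis is the distance in kb from the start of the chain and each bar is 1 peak drawn to its width, or to a minimum width so that narrow peaks can be seen. Both rows are filled on chromosomes 4, 16 and 21, the GATA1 row is empty on chromosome 1, and the codanin-1 row is empty on chromosomes 2 and 10.

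GATA1 chains made only of low-fold peaks were a larger share of chains in the windows than elsewhere. Of the 42 GATA1 chains in the windows, 15 (35.7%) had a fold under 3 in every peak, against 4 of 208 chains (1.92%) in the rest. In 13 of these 15 the span held 0 codanin-1 peaks, as it did in all 4 of the rest. Over all GATA1 chains, the span held 0 codanin-1 peaks in 19 of 42 (45.2%) in the windows and in 25.5% of those in the rest. The 13 chains held 103 peaks on 8 chromosomes (2, 4, 6, 7, 8, 10, 16 and 18), and the nearest codanin-1 peak was between 12.8 and 488 kb away. On chromosome 7 such a chain of 10 peaks lay between 61967204 and 61976308, and on chromosome 18 one of 7 peaks lay between 18511380 and 18520333. Of 35 codanin-1 chains in the windows, 2 (5.71%) were made of low-fold peaks only, against 3 of 485 (0.62%) in the rest.

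Overlap between the lists (at least 1 bp) was higher here than elsewhere for codanin-1 and moderately higher for GATA1. Over the whole lists the share was 6.60% for codanin-1 and 20.2% for GATA1. In the windows 116 of 434 codanin-1 peaks met a GATA1 peak (26.7%, 22.6 to 31.2), against 5.97% of the rest (5.58 to 6.38). Of the GATA1 peaks 117 of 450 met one of codanin-1 (26.0%, 22.01 to 30.3), against 19.6% of the rest (18.5 to 20.8). Where the shared stretch had to cover 0.5 of both peaks, the shares were 11.5% for codanin-1 (8.67 to 14.9), against 1.78% of the rest, and 11.1% for GATA1 (8.36 to 14.4), against 5.26%. Against the rest without the crowded megabases and chromosomes Y and M, where the 1 bp shares were 3.46% and 12.7%, both distances were wider. With peaks up to 1 kb apart also counted, the codanin-1 share was 30.6% (26.3 to 35.2), against 9.88% of the rest. For GATA1 it was 38.0% (33.5 to 42.7), an interval that includes the 35.5% of the rest. Without the crowded megabases and chromosomes Y and M, that GATA1 value of the rest was 22.1%. Measured in base pairs, 45.6 kb were shared, or 30.6% of the 149 kb covered by codanin-1 members and 29.4% of the 155 kb covered by GATA1 members. In the rest the shared length was 6.15% and 22.03%. Such shares also depend on how densely the other list is placed. GATA1 peaks were 2.09 times as dense in the windows as in the rest, and codanin-1 peaks 0.68 times. The shares were not adjusted for this, so the larger difference for codanin-1 cannot be told apart from the change in density.

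The codanin-1 difference was present at each width. Among narrow peaks (up to 145 bp, the lowest of 3 equal width classes of the list) 10.9% of codanin-1 members overlapped a GATA1 peak (6.11 to 17.7), against 1.81% of narrow peaks in the rest. In the middle class the shares were 28.2% and 4.18%, and in the widest (over 311 bp) 37.1% and 12.02%. For GATA1 the interval included the value of the rest in both the middle class, with 18.3% (12.1 to 26.02) against 16.5%, and the widest, over 226 bp, with 35.5% (29.1 to 42.2) against 34.5%. In the narrow class, up to 117 bp, it lay above, with 15.7% (9.24 to 24.2) against 9.01%. Against wide GATA1 peaks outside the crowded megabases and chromosomes Y and M, of which 25.6% overlapped, the share was higher.

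In overlapping pairs the shared stretch took up more of the codanin-1 peak in the windows than elsewhere, and not more of the GATA1 peak. The 126 overlapping pairs shared a median of 210.5 bp, which was 83.2% of the codanin-1 peak and 76.4% of the GATA1 peak. In the 956 pairs elsewhere the median was 173.5 bp, 36.5% of the former and 81.0% of the latter. The GATA1 peak was the wider of the pair in 64 of 126 pairs (50.8%) in the windows and in 29.7% of pairs elsewhere.

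Centromeres differed widely in their overlap. On chromosome 4, 29 of 53 peaks in the codanin-1 list (54.7%, 40.4 to 68.4) and 30 of 64 in the GATA1 list (46.9%, 34.3 to 59.8) overlapped the other list. Among windows with at least 10 peaks of the list, chromosome 4 had the highest share in both. Chromosome 21 had 22 of 58 for codanin-1 (37.9%) and 25 of 69 for GATA1 (36.2%), chromosome 16 had 17 of 48 (35.4%) and 14 of 47 (29.8%), and chromosome 9 had 22 of 73 (30.1%) and 23 of 54 (42.6%). The intervals of these 4 windows overlapped within each list. On chromosome 20, 4 of 13 GATA1 peaks overlapped (30.8%), and on chromosome 11, 3 of only 5 codanin-1 peaks. Together the windows of chromosomes 4, 9, 16 and 21, singled out after their values were seen, held 232 of the 434 codanin-1 members. They held 234 of the 450 GATA1 members. Among the overlapping members they held 90 of 116 for codanin-1 and 92 of 117 for GATA1. The overlapping share of codanin-1 peaks was 38.8% in these windows and 12.9% in the others. For GATA1 the shares were 39.3% and 11.6%.

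At the other end, 0 of 12 codanin-1 and 0 of 11 GATA1 peaks overlapped on chromosome 8, and 0 of 13 and 0 of 9 on chromosome 18. The upper limits of these shares, 26.5%, 28.5%, 24.7% and 33.6%, were all above the share in the rest of the list, so a lower share than elsewhere was not detectable with so few peaks. On chromosome 10, 1 of 49 GATA1 peaks overlapped (2.04%, 0.0517 to 10.9), below the 19.6% of the rest. On chromosome 1, 1 of 36 codanin-1 peaks did (2.78%, 0.0703 to 14.5), an interval that includes the 5.97% of the rest. Among the 11 windows with at least 10 codanin-1 peaks, the interval lay above the share of the rest in 6, and among the 11 with at least 10 GATA1 peaks it did so in 3.

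**Figure D4:**
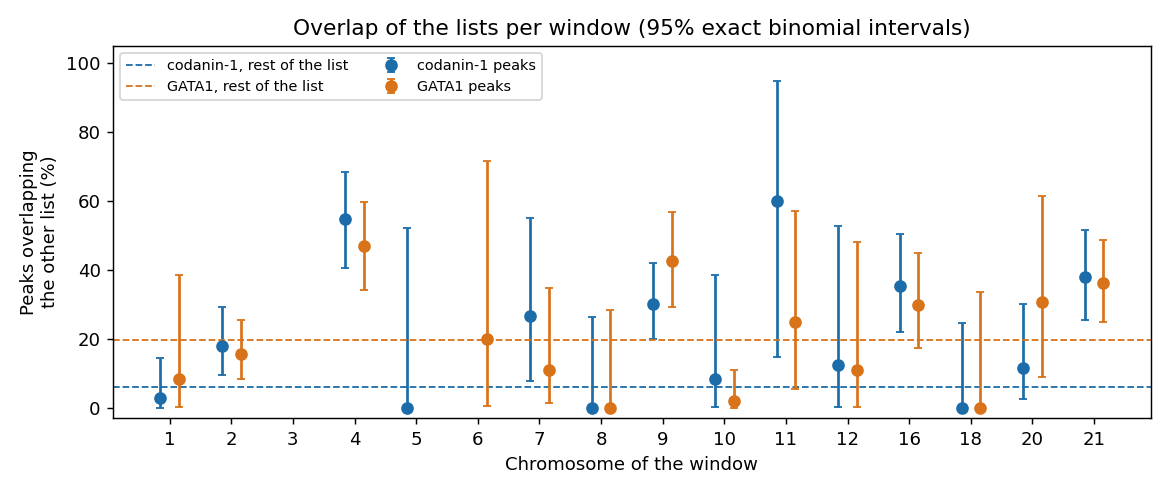
Percentage of peaks that overlap a peak of the other list (vertical axis) per window, by chromosome (horizontal axis), for lists with at least 5 peaks in the window; points are shares, bars 95% exact binomial intervals, and dashed lines the shares in the rest of each list (5.97% for codanin-1 and 19.6% for GATA1). Both points of chromosomes 4, 9 and 21 have intervals above the dashed line of their list, while both points are at 0, with wide intervals, on chromosomes 8 and 18.

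Low-fold codanin-1 members mostly overlapped GATA1, whereas low-fold GATA1 members mostly did not overlap codanin-1. Of the 74 codanin-1 members with a fold under 3, 58 overlapped a GATA1 peak (78.4%, 67.3 to 87.1), against 58 of 360 members with a higher fold (16.1%, 12.5 to 20.3). Many of the 74 came from few places. The largest chromosome 4 chain held 23 of them, and 25 of its 26 codanin-1 peaks overlapped. The shared chromosome 16 chain held 9, and all 11 of its codanin-1 peaks overlapped. Of the 168 GATA1 members with a fold under 3, 15 overlapped a codanin-1 peak (8.93%, 5.08 to 14.3), against 102 of 282 with a higher fold (36.2%, 30.6 to 42.1). In the rest of the lists low-fold peaks overlapped in 68.5% of cases for codanin-1 and in 37.9% for GATA1 (29.1 to 47.4). For GATA1 the intervals of the windows and of the rest did not overlap, and for codanin-1 they did.

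Low-fold GATA1 peaks lay nearer to the peak-free stretches, several of which were bordered by a chain of such peaks, than those of higher fold. Of 153 such peaks that did not themselves set the end of a stretch, 95 lay within 200 kb of it (62.1%, 53.9 to 69.8), against 29 of 277 GATA1 peaks of higher fold (10.5%, 7.12 to 14.7). The median distance was 54.2 kb for the low-fold class and 1.25 Mb for the others. For codanin-1, 15 of 73 low-fold peaks (20.5%, 11.98 to 31.6) and 51 of 354 others (14.4%, 10.9 to 18.5) lay within 200 kb, and the intervals overlapped. Within 500 kb they did not, with 41 of 73 (56.2%, 44.1 to 67.8) and 108 of 354 (30.5%, 25.8 to 35.6), and the medians were 372 kb and 0.981 Mb. All 24 low-fold codanin-1 peaks of chromosome 4 were among the 41. With end-setting peaks still left out, all 24 low-fold GATA1 peaks of chromosome 2 and all 37 of chromosome 10 lay within 500 kb of the stretch. On chromosome 9, 0 of 7 did, and on chromosome 7, 0 of 10 did. The ends of the stretches were set by peaks of these lists, in 20 of 27 cases by a GATA1 peak, and not by an annotation. A chain made only of low-fold GATA1 peaks bordered the stretch on chromosomes 1, 2, 6, 8, 10, 16 and 18. Only the end-setting peak of each such chain was left out, so its chain neighbours counted as near by construction. The shares near a stretch are therefore no test of where low-fold peaks lie.

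**Figure D5:**
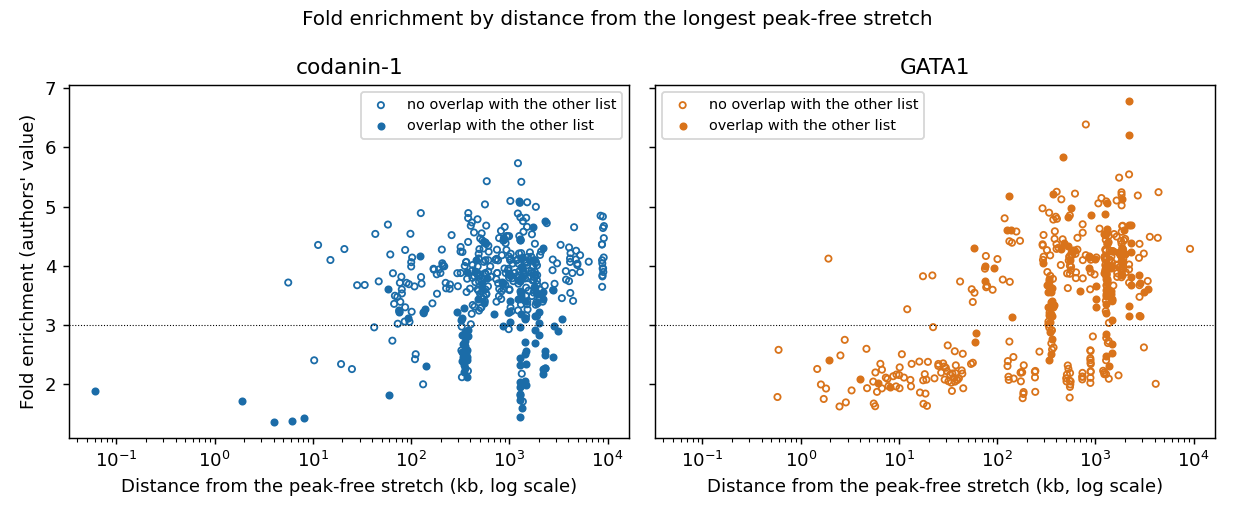
Fold enrichment (vertical axis) of each member against its distance in kb (horizontal axis, log scale) from the longest peak-free stretch of its window, for codanin-1 (left) and GATA1 (right); filled points overlap the other list, open points do not, the dotted line marks a fold of 3, and peaks that set the end of a stretch are left out. Of the GATA1 points under the line 95 of 153 lie within 200 kb, against 29 of 277 above it. Chain neighbours of the end-setting peaks are kept and lie near the stretch by construction.

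The most significant codanin-1 members all overlapped GATA1, and those of GATA1 did so in part. After the chromosome 4 peak, codanin-1 ranked a 1121 bp peak of chromosome 21 from 9694953 to 9696073, whose −log10 q was 6.44 and which overlapped 3 GATA1 peaks. It then ranked a peak of chromosome 9 from 44878954 to 44879086 with 5.55, one of chromosome 4 from 49332106 to 49332853 with 5.10, and the 2142 bp peak of chromosome 21 named above with 4.64. The last 2 lay wholly inside a GATA1 peak. The GATA1 members of highest −log10 q began with a peak of chromosome 9 from 67787257 to 67787481 with a value of 12.04. A peak of chromosome 10 from 39128831 to 39128894 reached 11.96 at a fold of 2.97. Peaks of chromosome 20 from 25846857 to 25846928 and of chromosome 12 from 38543802 to 38543862 each reached 10.9, and a peak of chromosome 9 from 44879494 to 44880312 reached 10.5. The 2 on chromosome 9 overlapped a codanin-1 peak. The other 3 were narrow, between 61 and 72 bp.

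On chromosome 9 a short run of peaks matched almost one to one. Between 44875015 and 44880312 there were 5 GATA1 peaks with folds of 3.67, 3.81, 4.39, 4.23 and 4.70 along the run. The codanin-1 list had 5 peaks from 44875184 to 44880105, with folds of 2.28, 2.28, 2.497, 4.75 and 2.56. All 10 overlapped the other list. A smaller run of this kind lay at 67785490 to 67791987, where GATA1 peaks of 6.21-fold, 6.78-fold and 3.15-fold met codanin-1 peaks of 4.30-fold, 3.45-fold and 2.26-fold.

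The members of highest fold stayed below the highest of their lists. A maximum depends on the number of peaks, and the members were far fewer. They numbered 434 against 13931 in the rest for codanin-1, and 450 against 4714 for GATA1. For codanin-1 the highest was 5.73, on chromosome 20 at 30743078 to 30743190, against 8.17 in the rest. It was followed by peaks starting at 53364789 on chromosome 4 (5.43), 9861893 on chromosome 21 (5.42), 43379803 on chromosome 10 (5.10) and 9922482 on chromosome 21 (5.09), of which the last overlapped a GATA1 peak and the others did not. For GATA1 the chromosome 9 peak of 6.78-fold was highest, against 8.58 in the rest, followed by peaks starting at 46387844 (6.39) and 67785490 (6.21) on the same chromosome, 34362256 on chromosome 12 (5.85) and 33039798 on chromosome 16 (5.54).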

How the data were processed

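Per the submitters' processing notes, BWA and MACS2 were used with hg19; versions are not named. The sources used here do not give the background library, the calling threshold or the handling of duplicate or repeat reads. Each of the 2 deposited lists has 9 columns. Fold enrichment (a ratio), −log10 p, −log10 q (a p-value and q-value on a −log10 scale) and score are the authors' deposited values; the score was not used. The files give no read counts, so depth is unknown. Folds of both lists are printed side by side at some sites, but their levels cannot be compared between lists.

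Members and lists were chosen with earlier results of these data known. Coordinates are hg19, written from 1. The length outside the windows was taken to the last peak of each chromosome. No genome or annotation of that build was used, so no gene or sequence is given. Peaks were named by rank: the 5 of highest −log10 q, fold and width in each list and the 3 largest chains, with further sites chosen after their values were seen; the fold limit of 3 and the peak-free stretches were chosen in the same way. Shares and the density ratio carry exact binomial intervals, medians order-statistic intervals. Overlap, chain and interval code was tested on simulated data. Software versions were pandas 2.3.3, scipy 1.17.1, numpy 2.4.6 and Python 3.11.15.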

Additional observations from a re-analysis of the deposited data

How the results depend on the processing

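No paired analysis was possible because 1 library stands for each antibody; leaving 1 out would leave no list. Depth is unknown. With a −log10 q of at least 2 in both lists, 266 GATA1 members remained. The density ratio was then 0.92 for codanin-1 and 5.16 for GATA1. The median fold was 4.04 for codanin-1 against 4.66 in the rest, and 2.91 for GATA1 against 4.70. The GATA1 median width was 264.5 bp against 165 bp. The codanin-1 share in chains was 32.3% against 7.99%. The overlapping share was 39.8% for codanin-1 against 4.79%, and 22.2% for GATA1 against 14.7%. A fold under 3 was found in 26.3% of codanin-1 members against 1.87%, and in 51.1% of GATA1 members against 8.86%. Merging peaks within 1 kb gave a GATA1 density ratio of 1.64. The GATA1 width was then 238 bp against 160 bp in the rest, and the fold 3.85 against 4.26. Shares in chains were 29.0% for codanin-1 against 16.6%, and 43.3% for GATA1 against 23.4%. Of codanin-1 members, 12.6% had a fold under 3, against 0.853% of the rest. Narrowing each window by 1 Mb at both ends gave for codanin-1 a density ratio of 0.49, width of 286.5 bp, fold of 3.62, 47.9% in chains and 31.9% overlapping, a GATA1 fold of 3.05, and a fold under 3 in 22.7% and 49.4%. Leaving out the peak-free stretches reversed the codanin-1 density ratio to 1.72 and gave 5.27 for GATA1; the shorter length by itself sets this change. Against the rest without the crowded megabases and chromosomes Y and M, the GATA1 density ratio was 2.70. Chains within 5 and 20 kb held 28.6% and 51.2% of codanin-1 members, and the rest was not counted at these gaps. Overlap of 0.5 of both lengths was met by 11.5% of codanin-1 and 11.1% of GATA1 members, against 1.78% and 5.26% of the rest. A codanin-1 peak lay within 1 kb of 38.0% of GATA1 members, against 35.5% of the rest. A fold under 2.5 was found in 10.1% of codanin-1 and 29.8% of GATA1 members, against 0.538% and 1.59% of the rest. The limits on fold and the peak-free stretches were added after seeing the data.

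Leaving out each chromosome's window in turn, the codanin-1 and GATA1 values ranged as follows. Density ratios were 0.61 to 0.75 and 1.83 to 2.43. Median widths were 235 to 259 bp and 212.5 to 225 bp, and median folds 3.74 to 3.82 and 3.36 to 3.79. Shares in chains were 34.3% to 45.2% and 65.3% to 73.0%. Overlapping shares were 22.8% to 28.9% and 22.5% to 28.9%, and shares of fold under 3 were 13.1% to 19.6% and 32.2% to 43.0%. Leaving out chromosome 4 gave the lowest overlapping share in both lists.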

Other observations

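The GATA1 chain on chromosome 11 had a regular spacing. It held 12 peaks between 51569963 and 51593131, of which 11 had a fold under 3. The start-to-start distances of 5 pairs of its peaks were 2048, 2049, 2046, 2047 and 2044 bp. The peaks of these pairs start at 51582713, 51584761, 51586810, 51588856 and 51590900, and at 51588338 and 51590385. The codanin-1 list had 3 peaks in a row there, at 51584745, 51586852 and 51588899, each overlapping a GATA1 peak of the series, with start-to-start distances of 2107 and 2047 bp, of which only the latter lies in the range of the GATA1 distances. Their folds, 1.44, 1.38 and 1.36, include the lowest of the whole codanin-1 list. Among the other 30 chains with at least 5 peaks, the most often repeated distance (within 10 bp) occurred at most 4 times, in a chain with 145 pairs, against 5 times in 29 pairs here. The spacing was noticed in the data and has no test.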
